A study of Mus musculus with 16 samples.

Results

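The genes described are 10, chosen by symbol from the 25054 genes of the deposited count table. The cells of the vessel wall are marked by the 5 contractile genes *Acta2*, *Tagln*, *Myh11*, *Cnn1* and *Myl9*. They are also marked by the 4 pericyte genes *Rgs5*, *Pdgfrb*, *Mcam* and *Cspg4*. The last gene, *Notum*, is no classical marker of these cells. RNA of the 10 genes was counted in 16 mouse osteosarcomas, 8 labeled KO and 8 labeled WT. Ribosomal RNA had been removed before sequencing. All of the mice carried OsxCreERT2+/- with p53fl/fl and Rb1fl/fl, and the KO mice also carried Arid1afl/fl. Cre was driven in cells that express *Osterix*, the osteoblast lineage, and was switched on with tamoxifen (400 ug/g) in mice aged 1 month. The mice were older than 6 months, of both sexes, and the labels give no sex for a single tumor. The question was whether these genes differed with *Arid1a* genotype, and how they varied with the site and the mouse a tumor came from.

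The 8 KO tumors carry 8 names, taken as 8 mice, Massa, Medusa, Montana, Ohio, Prince, Grilka, Zelda and Oregon, with no site in their labels. By the animal codes in the labels, the 8 WT tumors came from 4 mice: N42 gave 4 tumors (right pelvis, right femur, left limb and left shoulder), N43 gave 2 (spine and pelvis), and N215 (right hind limb) and N25 (lung) gave 1 each. The 7 WT tumors other than that of N25 are labeled with a skeletal or limb site and are called bone tumors here. Total counts lay between 1109487 and 15059640 in KO (median 5367670) and between 7806160 and 16962329 in WT (median 14828152), and 3 counts, the limit that a count of 0 allows, equal 6.69 CPM (the count scaled to the TMM-normalized library size) in Massa, 4.03 in Grilka and from 0.146 to 0.839 in the other 14. *Arid1a* itself, counted over the whole gene, lay between 107 and 270 CPM in KO and between 125 and 236 CPM in WT. The difference, KO minus WT, was 0.16 ± 0.22 on the log2 scale (SE, edgeR adjusted p = 0.715), so the count does not separate the labels. Some tumors held RNA of other tissues. The summed level of 10 lung markers was 12834 CPM in Massa and 30032 CPM in the lung tumor of N25, with all 10 counted, and at most 17.3 CPM elsewhere. That of 11 salivary gland markers was 24257 CPM in Prince, with all 11 counted, and at most 199 CPM elsewhere, and that of 16 skeletal muscle markers was 265135 CPM in Montana and 315810 CPM in Oregon, against a range of 293 to 30990 CPM in WT. Osteoblast markers summed to between 718 CPM (Prince) and 61035 CPM in KO and between 2914 CPM (the lung tumor of N25) and 84239 CPM in WT, with all 12 counted in every tumor but Prince (11), N215 (10) and Massa (9).

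Small vessels are wrapped by pericytes and larger ones by smooth muscle cells, together called mural cells. Endothelial cells secrete PDGF-B, and mural cells that carry its receptor, PDGFRB, are recruited along the sprout. Smooth muscle cells contract through actin and myosin filaments whose genes are switched on by the serum response factor SRF, which binds a short DNA element called the CArG box, and by its cofactors of the myocardin family. Several of the same proteins are also made by myofibroblasts, by the myoepithelial cells of glands and in part by stromal cells, so in bulk RNA the genes mark a program more than a single cell type. *Notum* encodes a secreted enzyme that removes the lipid from Wnt proteins and is itself raised by Wnt signaling, and it is no classical marker of the vessel wall. In bulk tumors, fewer cells of a type and less RNA per cell cannot be told apart.

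The promoters of contractile genes are shown because the CArG box is the sequence element these genes are known for. RefSeq windows on GRCm38.p6 from 250 bases before to 50 bases after the gene start were found for 6 of the 10 genes. They were searched on both strands for the CArG box, in which a run of A and T lies between CC and GG, and for the same element with 1 G or C in its A/T run, and capitals mark the matches.
*Acta2*, chr19:34255324-34255623, minus strand: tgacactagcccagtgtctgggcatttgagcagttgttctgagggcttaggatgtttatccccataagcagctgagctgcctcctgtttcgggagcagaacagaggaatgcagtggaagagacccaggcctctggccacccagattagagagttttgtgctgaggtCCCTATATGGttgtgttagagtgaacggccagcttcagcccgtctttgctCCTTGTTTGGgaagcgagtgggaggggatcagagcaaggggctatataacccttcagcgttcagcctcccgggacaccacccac
*Myl9*, chr2:156775214-156775513, plus strand: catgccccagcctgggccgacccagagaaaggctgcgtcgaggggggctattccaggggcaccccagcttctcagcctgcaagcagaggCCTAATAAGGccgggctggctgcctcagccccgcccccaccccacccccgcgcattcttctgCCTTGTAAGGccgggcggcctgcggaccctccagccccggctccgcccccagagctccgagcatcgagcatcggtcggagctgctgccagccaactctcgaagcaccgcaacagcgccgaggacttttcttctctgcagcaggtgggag
*Cnn1*, chr9:22099003-22099302, plus strand: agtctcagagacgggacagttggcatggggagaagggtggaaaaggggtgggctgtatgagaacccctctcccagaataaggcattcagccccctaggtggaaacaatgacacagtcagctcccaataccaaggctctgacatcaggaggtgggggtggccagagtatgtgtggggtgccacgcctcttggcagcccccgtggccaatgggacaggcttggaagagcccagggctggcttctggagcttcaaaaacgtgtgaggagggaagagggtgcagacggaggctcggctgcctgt
The *Acta2* window held 2 matches with 1 G or C in the run, CCCTATATGG at -84 to -75 and CCTTGTTTGG at -34 to -25 from the start. In the *Myl9* window there was 1 full CArG box, CCTAATAAGG at -161 to -152, and 1 match with a G in its run, CCTTGTAAGG at -99 to -90. The *Cnn1* window, like those of *Rgs5*, *Mcam* and *Cspg4*, held neither form. Of all 32851 promoter windows, 1.63% held the full element and 9.98% held either form. A match is a description of the letters and not a measured binding site.

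Among the 10 genes, *Notum* fell in the KO tumors and no other gene passed the test. The call was lost when mice were taken into account, with adjusted p = 0.386 in limma-voom with an estimated correlation within mice and 0.145 in edgeR on counts summed per mouse. In edgeR's quasi-likelihood test over the 15413 genes with enough counts for its filter, 9 of the 10 genes were tested and 1, *Notum*, had a Benjamini-Hochberg adjusted p under 0.05, beside 4.01% of all genes tested (2.15% lower and 1.86% higher in KO). *Notum* was also the 1 gene of the 9 at an unadjusted p under 0.05. The share of all genes tested at that level is not given here. Counts at an unadjusted p, here and below, therefore cannot show an excess. The median log2 fold change of the 9 was 0.10, and that of all genes tested was also 0.10. *Cnn1* did not pass the filter. For the other 9 genes the KO and WT tumors overlapped, as the plot of levels by tumor shows.

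**Figure D1:**
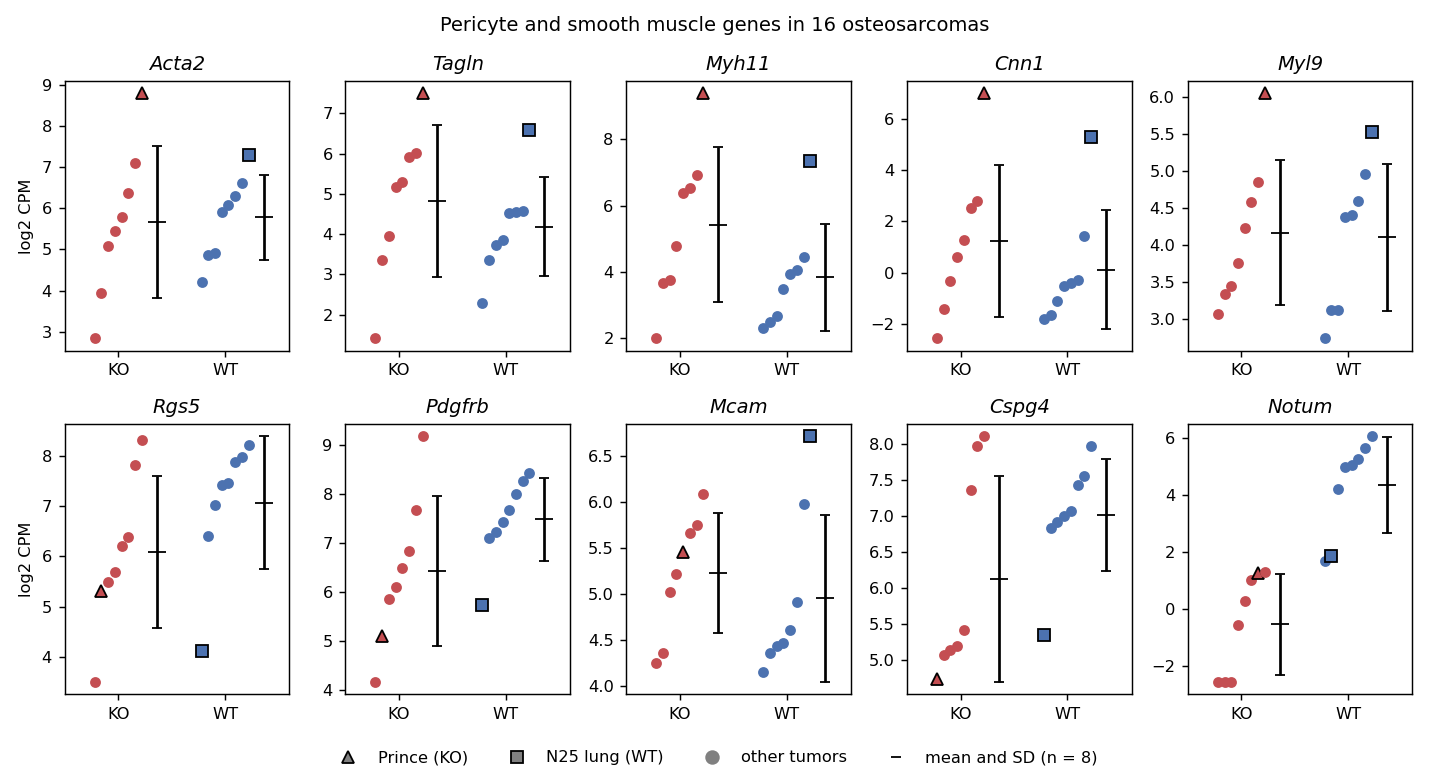
Levels of the 10 genes in each tumor, as log2 CPM with a prior count of 2 on the vertical axis, for 8 KO and 8 WT tumors (points), with the mean and SD of each group (n = 8). The triangle is Prince and the square is the lung tumor of N25. The groups overlap in every panel but that of *Notum*.

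*Acta2*, the smooth muscle actin that forms the thin filaments, ranged in KO from 6.97 CPM in Ohio to 445 CPM in Prince with a median of 49.2. The WT range was 18.3 CPM in the right femur tumor of N42 to 157 CPM in the lung tumor of N25, with a median of 64.0. The KO range enclosed the WT range, and the KO mean, 103 ± 145 CPM (SD, n = 8), stood above the WT mean, 67.5 ± 45.5 CPM (SD, n = 8), while the KO median was the lower of the 2. The log2 difference, KO minus WT, was 0.61 ± 0.68 (SE, edgeR adjusted p = 0.630), and without Prince it became -0.35.

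*Tagln*, transgelin or SM22, an actin-binding protein of smooth muscle, lay between 2.48 CPM in Ohio and 180 CPM in Prince in KO (median 37.5) and between 4.71 CPM and 96.0 CPM in WT (median 18.7). Apart from the lung tumor of N25, every WT tumor was at or under 23.7 CPM, a level that 5 of the 8 KO tumors exceeded. The log2 estimate was 0.97 ± 0.70 (SE, edgeR adjusted p = 0.430), which did not pass the threshold, nor did the 1.67 without the lung tumor of N25 (adjusted p = 0.128). The end of *Tagln* overlaps that of *Pcsk7* on the other strand, whose total count was 101% of that of *Tagln*, and the strand of counting is not given in the sources used here.

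*Myh11*, the myosin heavy chain of smooth muscle and the most restricted of the contractile genes, had the widest range on the log2 scale of the contractile genes tested. Its level was 667 CPM in Prince, 120 in Massa, 92.6 in Oregon, 82.6 in Montana, 27.2 in Medusa, 13.4 in Grilka, 12.5 in Zelda and 3.82 in Ohio. In WT it was 162 CPM in the lung tumor of N25 and from 4.80 to 21.6 CPM in the other 7. So 5 of the 8 KO tumors were above every WT tumor of bone, and the group means, 127 ± 222 CPM in KO and 30.3 ± 53.7 CPM in WT (SD, n = 8 each), had SDs larger than themselves. The estimate, KO minus WT, was 2.075 ± 0.99 on the log2 scale (SE, edgeR adjusted p = 0.217). The call turned on single tumors: without the lung tumor of N25 the difference was 3.48 (SE 0.92, edgeR adjusted p = 0.0378, beside 5.84% of all genes called in that fit), without Prince it was 0.70 (adjusted p = 0.665), and without both it was 2.16 (adjusted p = 0.0614).

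*Cnn1*, calponin, which binds actin and restrains myosin, had the lowest median of the 5 per length of exon in both groups. It stood at 127 CPM in Prince and 38.9 CPM in the lung tumor of N25, at 6.69 CPM in Massa, which there is 3 counts, and at 5.61 CPM in Montana. In the other 12 tumors it was at or under 2.50 CPM, with no count in Ohio, which allows up to 0.286 CPM. The medians were 1.79 CPM in KO and 0.557 CPM in WT. DESeq2, which tested it, estimated its log2 difference at 1.41 (adjusted p = 0.278).

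*Myl9*, the regulatory light chain of smooth muscle and nonmuscle myosin, varied least of the 5 on the log2 scale. It ranged from 8.21 to 66.2 CPM in KO (median 15.98) and from 6.48 to 45.8 CPM in WT (median 20.8). The groups had about the same mean, 22.5 ± 19.1 and 20.7 ± 13.3 CPM (SD, n = 8 each), and differed by 0.14 ± 0.48 on the log2 scale (SE, edgeR adjusted p = 0.896).

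The 5 contractile genes shared their extreme tumors. Each was highest in Prince and second highest in the lung tumor of N25, while 12.5% of all genes tested were highest of the 16 in Prince. Prince stood above the median of the other 15 tumors 44.4-fold for *Myh11*, 8.12-fold for *Acta2*, 7.88-fold for *Tagln* and 3.56-fold for *Myl9*. For *Cnn1* that median was 0.634 CPM, the value of 3 counts in Medusa, and no fold is given. Massa ranked next for *Tagln*, *Myh11* and *Cnn1*, and Ohio was lowest for *Acta2*, *Tagln* and *Myh11*. Prince was also the tumor with the salivary gland markers and had the highest sum of 5 myoepithelial and basal epithelial markers, 166 CPM with all 5 counted against 0 to 83.6 CPM in the others, and the lowest sum of skeletal muscle markers, 14.4 CPM. The lung tumor of N25 and Massa were the tumors with lung markers, and their sums of 15 endothelial markers, 3245 and 1771 CPM, were the highest of WT and of KO, where the ranges were 516 to 3245 and 307 to 1771 CPM. The part of these tissues in the contractile levels was not tested. The heat map of the 10 genes shows the same tumors at the end of the contractile rows.

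**Figure D2:**
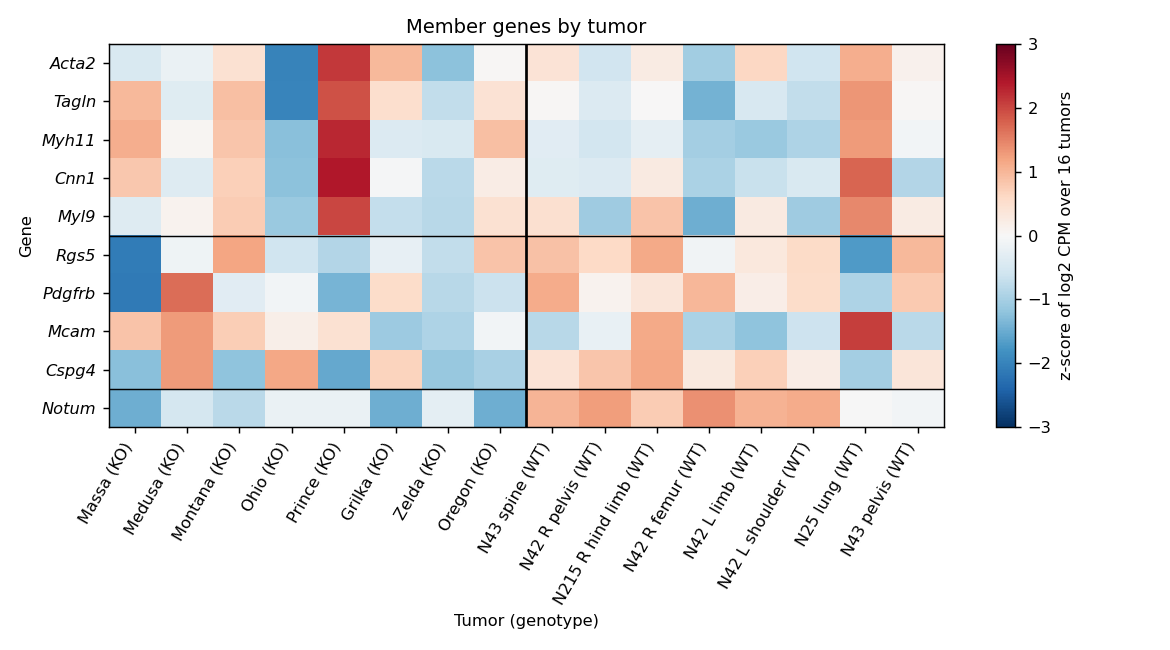
Level of each gene (rows) in each tumor (columns), as the z-score of log2 CPM over the 16 tumors, with KO and WT tumors side by side. Prince and the lung tumor of N25 are high in the 5 contractile rows and low in those of *Rgs5*, *Pdgfrb* and *Cspg4*.

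*Pdgfrb*, the receptor that recruits mural cells, ranged from 17.8 CPM in Massa to 581 CPM in Medusa in KO (median 79.8) and from 53.4 CPM in the lung tumor of N25 to 347 CPM in the spine tumor of N43 in WT (median 189). Medusa was the highest of all 16 tumors, yet 6 of the other 7 KO tumors were under every WT tumor of bone, the lowest of which had 137 CPM. The highest of these 6 was Ohio at 115 CPM, and Grilka, the exception, had 204 CPM. On the log2 scale KO minus WT was -0.47 ± 0.57 (SE, edgeR adjusted p = 0.666), and without Medusa it was -1.29 (adjusted p = 0.117).

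*Rgs5*, a regulator of G-protein signaling that is among the most specific pericyte genes, ranged from 11.2 CPM in Massa to 320 CPM in Montana in KO (median 62.6) and from 17.1 CPM in the lung tumor of N25 to 299 CPM in the N215 tumor in WT (median 174). Montana and Oregon, the KO tumors with skeletal muscle markers, had 320 and 226 CPM, and the other 6 KO tumors had 83.2 CPM or less, under each of the 7 WT tumors of bone. That margin was narrow, since Medusa at 83.2 CPM was close to the right femur tumor of N42 at 85.1 CPM. The estimate was -0.68 ± 0.59 on the log2 scale (SE, edgeR adjusted p = 0.518), and without Montana and Oregon it was -1.76 (adjusted p = 0.0816). It was below 0 in each of the 32 alternative fits, some of them identical, and in none did it pass the threshold.

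*Cspg4*, the NG2 proteoglycan of pericytes and of other progenitor cells, fell into high and low KO tumors. Medusa had 276 CPM, Ohio 252 CPM and Grilka 165 CPM, and the other 5 lay between 26.5 and 42.5 CPM. In WT the lung tumor of N25 had 40.6 CPM and the bone tumors from 114 to 251 CPM. The medians were 39.5 CPM in KO and 131 CPM in WT, but the group means differed by less than the SD of KO (108 ± 106 and 144 ± 61.8 CPM, SD, n = 8 each), and the log2 estimate was -0.40 ± 0.53 (SE, edgeR adjusted p = 0.692).

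*Mcam*, the adhesion molecule CD146 of pericytes, smooth muscle and endothelium, had the narrowest range of the 10 on the log2 scale. It lay between 18.8 and 67.8 CPM in KO (median 40.3) and between 17.6 CPM and 104 CPM in WT (median 23.1). The highest level was in the lung tumor of N25, the tumor with the most endothelial marker RNA, and 4.59% of all genes tested were highest there. KO minus WT was 0.10 ± 0.40 on the log2 scale (SE, edgeR adjusted p = 0.914).

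Unlike the contractile genes, *Rgs5*, *Pdgfrb* and *Cspg4* were low in the tumors with lung or salivary gland markers. Of the 16 tumors, Prince, the lung tumor of N25 and Massa ranked 14, 15 and 16 for *Rgs5*, 15, 14 and 16 for *Pdgfrb*, and 16, 12 and 15 for *Cspg4*. *Mcam*, the remaining pericyte gene, went the other way, with ranks 6, 1 and 4. The sum of 22 other pericyte genes was 292, 727 and 591 CPM in these tumors. Its range was 292 to 1310 CPM in KO and 578 to 1329 CPM in WT, so the low levels are not shown for pericyte genes in general. The sums of osteoblast markers in the same 3 tumors were also low, at 718, 2914 and 3011 CPM. Montana and Oregon had sums of 2529 and 2782 CPM, with *Cspg4* at 34.9 and 42.5 CPM and *Pdgfrb* at 90.6 and 69.1 CPM, and with the high *Rgs5* levels given above. The N215 tumor had a sum of 4856 CPM, yet *Rgs5* at 299 CPM, *Cspg4* at 251 CPM and *Pdgfrb* at 173 CPM. Zelda had a sum of 11850 CPM, with *Rgs5* at 44.6 CPM, *Cspg4* at 36.4 CPM and *Pdgfrb* at 58.3 CPM. The part of tumor content in the levels of these genes was not tested.

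*Notum* lies on chromosome 11 of GRCm38, from 120653788 to 120661175 on the minus strand. Its counts were 0 in Massa, Grilka and Oregon, 2 in Montana, 5 in Medusa, 24 in Ohio, 27 in Prince and 27 in Zelda. In WT they were 578 and 60 in the spine and pelvis tumors of N43, 1045, 1171, 652 and 650 in the right pelvis, right femur, left limb and left shoulder tumors of N42, 163 in the N215 tumor and 54 in the lung tumor of N25. Normalized, KO ranged from 0 to 2.29 CPM (median 0.783) and WT from 3.01 to 66.5 CPM (median 32.3), so the WT median was 41.3 times the KO median. With the 3 zeros set to the limits they allow, the KO median would be 2.04 CPM and the ratio 15.9. All 8 KO values were below all 8 WT values, which 0.208% of the genes tested did in this direction and 0.415% in either. The margin was narrow, since Ohio at 2.29 CPM was close to the pelvis tumor of N43 at 3.01 and the lung tumor of N25 at 3.49. A count of 0 allows up to 6.69 CPM in Massa, 4.03 in Grilka and 0.839 in Oregon, so the first 2 are not shown to be below the lowest WT tumors.

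On the log2 scale *Notum* was -4.59 ± 0.75 in KO against WT (SE, edgeR adjusted p = 0.00476). The edgeR test takes the 8 WT tumors as independent, although they came from 4 mice. When the counts of a mouse were summed, the difference in log2 CPM between 8 KO and 4 WT mice was -4.62 (two-sided exact permutation test over all splits of the mice, p = 0.00404, where 0.00202 is the smallest possible). In the edgeR fit on the same sums the log2 fold change was -4.08 and the adjusted p was 0.145, in a fit that called 10 of 16007 genes, or 0.0625%. The same fit called 0 of the 10 genes, with 1 at an unadjusted p under 0.05, while limma-voom with mice as random effects gave -3.69 (adjusted p = 0.386, 0.11% of genes called) and DESeq2 gave -4.62 (adjusted p = 3.47e-08, 12.5% called). With the 4 N42 tumors left out it was -3.50 (adjusted p = 0.280), with the log2 of total counts as a covariate it was -3.46 (adjusted p = 0.0785), and leaving out any 1 tumor kept it between -4.81 and -4.34. The log2 fold change was below 0 in all 32 alternatives and past the threshold in 26. The fits without Prince and without the lung tumor of N25 are each counted again among those leaving out 1 tumor. The antisense gene *Notumos* overlaps *Notum*, and its total count was 2.31% of that of *Notum*.

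For the other 9 genes the permutation over mice gave differences in log2 CPM, KO minus WT, of 0.86 for *Myh11* (p = 0.533), 0.08 for *Tagln* (p = 0.921), -0.03 for *Cnn1* (p = 0.992), -0.41 for *Myl9* (p = 0.493) and -0.54 for *Acta2* (p = 0.596) by the same exact test. The differences of the pericyte genes were -0.72 for *Rgs5* (p = 0.491), -0.78 for *Pdgfrb* (p = 0.390), -0.73 for *Cspg4* (p = 0.444) and -0.15 for *Mcam* (p = 0.760) in that exact test. With 1 mouse, N25, holding the extreme of the WT group for 9 of the 10 genes, the mean over 4 WT mice gave its lung tumor more weight than the mean over 8 tumors did. The plot of fold changes shows how each estimate moved between these choices.

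**Figure D3:**
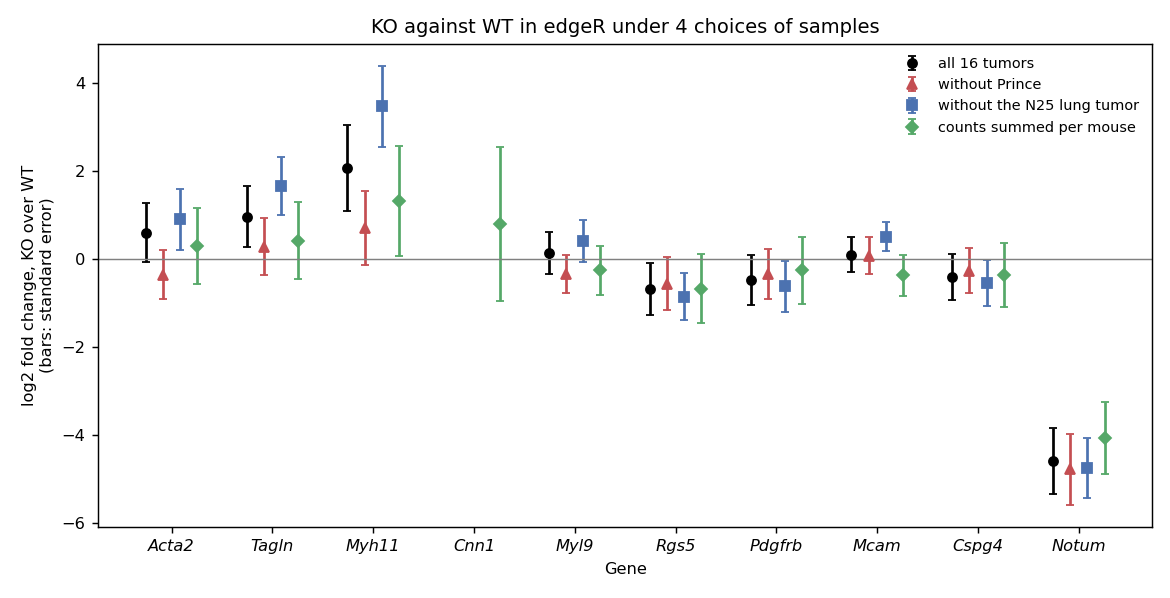
Log2 fold change of each gene, KO minus WT, with its standard error (bars) in edgeR, for all 16 tumors, without Prince, without the lung tumor of N25, and with counts summed per mouse. *Notum* lies between -4.78 and -4.08 in all 4 fits, while *Myh11* moves from 0.70 without Prince to 3.48 without the lung tumor of N25. *Cnn1* was tested on the summed counts alone.

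Among the WT tumors, the lung tumor of N25 stood apart from the 7 tumors of bone. It was above all 7 for the 5 contractile genes and *Mcam*, as 20.5% of all genes tested were. It exceeded the bone median 14.8-fold for *Myh11*, 6.67-fold for *Tagln*, 4.76-fold for *Mcam*, 2.62-fold for *Acta2* and 2.23-fold for *Myl9*. For *Cnn1* that median was 0.531 CPM, the value of 9 counts in the left shoulder tumor of N42, and no fold is given. The lung tumor was below all 7 for *Rgs5* (10.3-fold under the bone median), *Pdgfrb* (3.83-fold) and *Cspg4* (3.30-fold), as were 19.5% of all genes tested. For *Notum* it was within their range, although 9.45-fold under their median. N25 gave no other tumor, so its site and its mouse cannot be told apart.

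Most of the genes spread less within mouse N42 than between mice. Over the 4 N42 tumors the SD of log2 CPM was 0.33 for *Mcam*, 0.36 for *Cspg4*, 0.45 for *Notum*, 0.49 for *Rgs5* and 1.03 for *Acta2*, and for 9 of the 10 genes, all but *Acta2*, it was smaller than the SD of the 4 mouse means. Without the lung tumor of N25 it was smaller in 7 of the 10, and no longer for *Pdgfrb* (0.53 in N42 against 0.42 between 3 mice) or *Tagln* (0.72 against 0.71). The share of all genes tested that spread less within N42 is not given here, so neither count is shown to be particular to these genes. The *Acta2* spread in N42 ran from 18.3 CPM in the right femur to 98.4 CPM in the left limb. The spine and pelvis tumors of N43 differed by no more than 1.44-fold in 8 of the 10 genes. The exceptions were *Cnn1*, at a fraction of a CPM in both, and *Notum*, which had 31.8 CPM in the spine tumor and 3.01 CPM in the pelvis tumor, a 10.6-fold difference. The pelvis tumor of N42 had 50.8 CPM of *Notum*, so the pelvis tumors of the 2 mice differed. The bars by tumor show this step in N43 beside the low lung tumor.

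**Figure D4:**
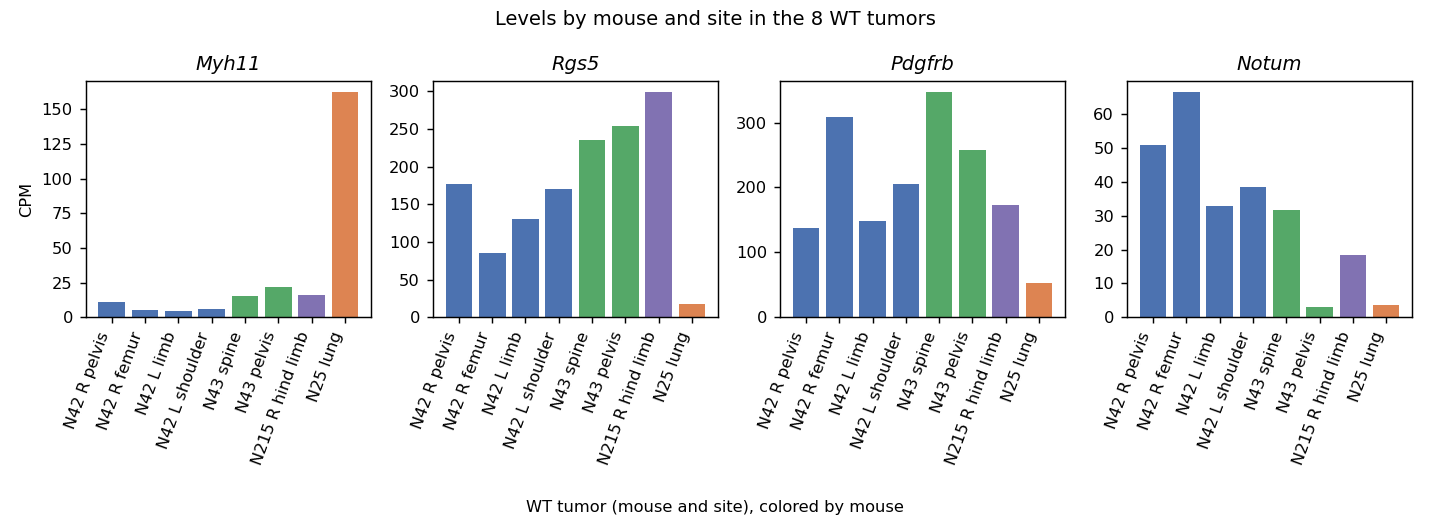
CPM of *Myh11*, *Rgs5*, *Pdgfrb* and *Notum* in each of the 8 WT tumors (bars, 1 library each), colored by mouse. The lung tumor of N25 is highest for *Myh11* at 162 CPM and lowest for *Rgs5* at 17.1 CPM, and for *Notum* the 2 tumors of N43 stand at 31.8 and 3.01 CPM.

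Most of the genes also spread more in KO than in WT. The SD of log2 CPM was larger in KO than in WT for 8 of the 10, for example 2.33 against 1.62 for *Myh11*, 1.84 against 1.03 for *Acta2*, 1.54 against 0.852 for *Pdgfrb* and 1.43 against 0.775 for *Cspg4*. *Mcam* (0.656 against 0.907) and *Myl9* (0.986 against 0.998) were the exceptions. The KO tumors came from 8 mice and the WT tumors from 4, and the KO libraries were shallower, and the difference in spread was not tested. The share of all genes tested with a larger SD in KO is not given here, so the count is not shown to be particular to these genes.

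Per kilobase of exon, which allows levels to be compared between genes, the WT medians fell in the order *Rgs5* (38.2 CPM per kb), *Pdgfrb* (34.4), *Acta2* (29.1), *Myl9* (17.9), *Notum* (13.4), *Cspg4* (10.995), *Tagln* (9.38), *Mcam* (6.88), *Myh11* (1.71) and *Cnn1* (0.204). Most neighbors in this order did not differ beyond their spread over tumors. *Acta2* over *Myl9*, *Mcam* over *Myh11* and *Myh11* over *Cnn1* each held in 8 of 8 WT tumors, with a mean log2 difference larger than its SD. In KO the order by median level began with *Acta2* (22.4 CPM per kb), *Tagln* (18.9) and *Pdgfrb* (14.6) and ended with *Notum* (0.325).

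Across the 16 tumors the contractile genes were more alike in their levels than the pericyte genes were. Spearman's rho of log2 CPM had a median of 0.77 over the 10 contractile pairs (from 0.56 to 0.90), which was 0.79 within KO, 0.67 within WT and 0.65 without Prince and the lung tumor of N25. The 6 pericyte pairs had a median of 0.10, from -0.34 to 0.66. The coefficient was 0.66 for *Pdgfrb* with *Cspg4*, 0.50 for *Rgs5* with *Pdgfrb* and 0.29 for *Rgs5* with *Cspg4*, and below 0 for the 3 pairs of *Mcam*. Between the contractile and pericyte genes the median of 20 pairs was -0.15. That median was -0.21 within KO, 0.10 within WT and 0.12 without Prince and the lung tumor of N25, so its sign turned with the tumors used. The 9 pairs of *Notum* had a median of -0.24. These values are descriptions, since tumors share mice and libraries differ in depth.

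**Figure D5:**
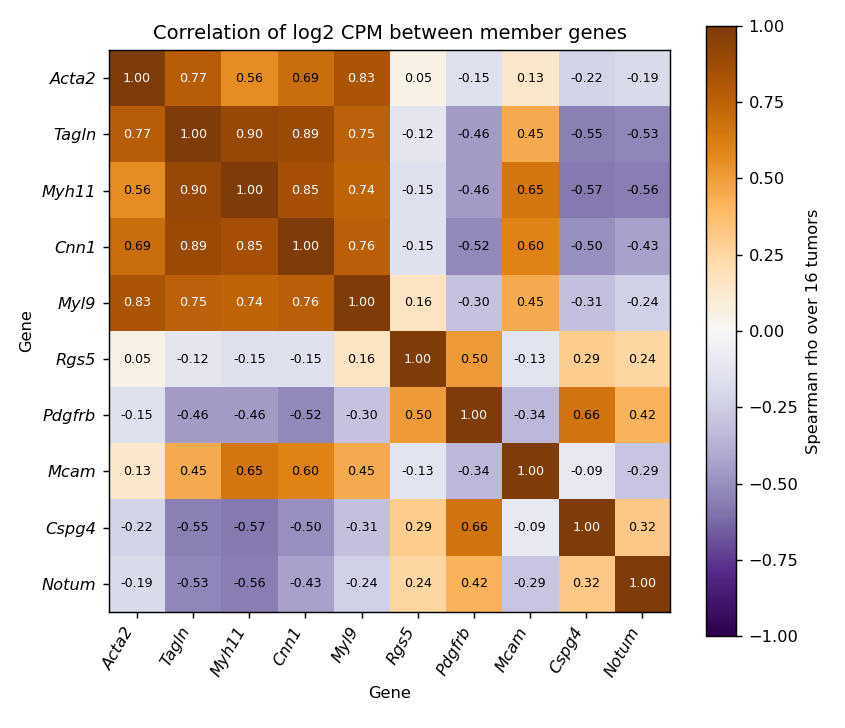
Spearman's rho between the 10 genes over 16 tumors, computed on log2 CPM. The block of 5 contractile genes has values from 0.56 to 0.90, and the pericyte genes have values from -0.34 to 0.66 among themselves.

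The genes outside the 10 whose pattern was most like the mean z-score of the contractile genes over the 16 tumors were *Mapt* and *Lmod1* (rho 0.91 each), *Cbr2*, *Aatk*, *Palmd* and *Card10* (0.89 each), and *Stk40*, *Ifitm10*, *Cnksr1* and *G0s2* (0.88 each). *Lmod1*, leiomodin, nucleates actin filaments in smooth muscle, while *Cbr2* is known from the lung and had 3531 CPM in the lung tumor of N25. For the mean of the 4 pericyte genes they were *Wnk3* (0.92), *Cpt1c* (0.89), *Foxc2* (0.88), *Fbn1* (0.87), *Adamts7* and *Pcdhb15* (0.86), *Ddr2* (0.85), *Dchs1* and *Slit3* (0.84) and *Cacna1c* (0.83). *Fbn1* encodes the microfibril protein fibrillin and *Ddr2* a collagen receptor of mesenchymal cells. For *Notum* they were *Gm37660* (0.95), *Zdhhc20* and *1500011B03Rik* (0.94), and *Sgpl1* and *Slc22a21* (0.93). All of these are the highest of 15413 values and carry no test.

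Of 22 other smooth muscle genes, 20 were tested, and 0 were past the threshold in edgeR, 7 at an unadjusted p under 0.05, while DESeq2 called 4 of 22, beside the 12.5% it called of all genes, and limma-voom 0. Of the 20, 19 had a log2 fold change above 0, and the median was 1.33 against 0.10 for all genes tested. Many of these genes are also made by skeletal muscle: the most abundant, *Tpm1*, a tropomyosin, and *Des*, desmin, had KO means of 1302 ± 2147 and 1276 ± 2310 CPM and WT means of 511 ± 231 and 193 ± 159 CPM (SD, n = 8 each). The sum over the list was 12788 CPM in Montana and 14042 CPM in Oregon, the KO tumors with skeletal muscle markers, and at most 2822 CPM in WT. Its value in Prince was 1828 CPM, within the WT range that begins at 1352. Abundant genes such as *Tpm1* and *Des* weigh most in this sum. It therefore does not show the level of the less abundant genes of the list in Prince. The role of muscle content in the list was not tested. Counts at an unadjusted p, for this list and those below, have no share of all genes beside them and cannot show an excess.

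The 12 regulators of the smooth muscle program, among them *Srf*, *Myocd* and the TGF-beta ligands, had 0 genes past the threshold in edgeR, 2 at an unadjusted p under 0.05, 2 in DESeq2 and 0 in limma-voom, with a median log2 fold change of -0.18. The DESeq2 counts for this list and the next 3 stand beside 12.5% of all genes called by that tool. *Tgfb2*, a TGF-beta ligand, ranged from 12.5 to 593 CPM in KO, with Prince highest, and from 23.9 to 177 CPM in WT. Of 22 other pericyte genes, all tested, edgeR called 0 with 3 at an unadjusted p under 0.05, DESeq2 called 1 and limma-voom 0. Their median was -0.01, with 11 above and 11 below 0. *Abcc9*, a subunit of the potassium channel of pericytes, had 188 ± 169 CPM in KO and 119 ± 100 CPM in WT (SD, n = 8 each). The 9 ligands and receptors of the PDGF and angiopoietin pathways had 0 past the threshold in edgeR, 3 at an unadjusted p under 0.05, 1 in DESeq2 and 0 in limma-voom, with a median of -0.02. *Pdgfra*, the sister receptor found on mesenchymal cells, differed by -1.25 on the log2 scale (edgeR adjusted p = 0.0844). The 15 endothelial markers had 0 past the threshold in edgeR, 1 at an unadjusted p under 0.05 and 0 by the other 2 tools, with a median of -0.32 and 13 of 15 below 0.

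Of 12 genes that Wnt signaling raises and that feed back on it, 9 were tested and 2 fell in KO, beside 2.15% of all genes tested. *Axin2*, part of the complex that degrades beta-catenin, changed by -1.33 on the log2 scale (edgeR adjusted p = 0.0408), and *Apcdd1*, a Wnt inhibitor of the cell surface, by -3.55 (adjusted p = 0.0159). *Wif1*, a secreted inhibitor, was the most abundant of the list and had -3.01 (adjusted p = 0.0861). The median of the 9 was -1.33, with 7 below 0. The call of *Apcdd1* held with any 1 of the 16 tumors left out and that of *Axin2* in 6 of these 16 fits, being lost without any of 4 N42 tumors, the spine tumor of N43, Medusa, Ohio, Prince, Grilka or Oregon. With counts summed per mouse 0 of the list passed the threshold in edgeR, where 3 had an unadjusted p under 0.05, limma-voom called 0 of the 9, and DESeq2 called 6 of 12, 5 lower and 1 higher, where it called 12.5% of all genes.

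Markers of the other cells that a tumor sample could hold were counted in the same fit. Beside 2.15% of all genes tested, 8 of 10 macrophage markers fell in KO, with a median of -2.07, and 2 of 10 fibroblast markers, *Fbln1* (-3.13, edgeR adjusted p = 0.0259) and *Lum* (-3.10, adjusted p = 0.0460), with a median of -0.97. The call of *Fbln1* was lost without Oregon or the spine tumor of N43, that of *Lum* in 12 of the 16 fits that leave out 1 tumor, and without the right femur tumor of N42 the macrophage count was 5. With counts summed per mouse, 0 of either list passed the threshold in edgeR, with 8 macrophage and 4 fibroblast markers at an unadjusted p under 0.05, and limma-voom called 0 in both. Of the 12 osteoblast markers edgeR called 0, with 4 at an unadjusted p under 0.05, at a median of -1.06. DESeq2 called 4 of the 12, beside 12.5% of all genes, and limma-voom called 0. The 16 skeletal muscle markers had a median of 3.32, with 2 at an unadjusted p under 0.05 and 0 called by any of the 3 tools. Few of the genes in the lists for distant tissues passed the filter: 2 of 11 salivary gland, 1 of 5 myoepithelial and basal, 1 of 10 lung and 0 of 10 liver markers. None of these was called by edgeR or limma-voom, with 1 salivary gland marker at an unadjusted p under 0.05 in edgeR. DESeq2, run without that filter, called 2 of 11, 1 of 5, 1 of 10 and 0 of 10 in the same order. The liver markers summed to 1733 CPM in Zelda, with all 10 counted, and to at most 26.8 CPM elsewhere. The part of these cells in the levels of the 10 genes was not tested.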

How the data were processed

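RNA of 16 tumors was sequenced from one end after removal of ribosomal RNA. The authors aligned the reads with Novoalign 2.08.01 to mm10, counted them per gene and deposited raw counts, which they analyzed with DESeq2 1.26.0. The strand of counting is not given in the sources used here. Reads of near-identical or overlapping genes may be shared. Every column of the table belongs to a tumor of the series.

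Groups, mice and sites were taken from the labels. edgeR 4.0.16 in R 4.3.3 was fitted to all genes without covariates (TMM, filterByExpr with a minimum count of 10 and total of 15, quasi-likelihood test, Benjamini-Hochberg threshold 0.05), which tested 15413 genes and left out 9641. The biological coefficient of variation was 70.4%. The standard error is the log2 fold change divided by the square root of F. CPM is the count scaled to the TMM-normalized library size, and log2 CPM has a prior count of 2. Exon lengths come from GENCODE vM21. Two-sided exact permutation tests used log2 CPM of 12 mice. No 2 libraries agreed within counting noise. The nearest pair, from N42, had a chi-square of 40.1 per gene. Floors of 3 counts cover counting error only. Whether the tumors of a mouse arose separately is not labeled, so p-values over tumors may be too small. Alternatives were DESeq2 1.42.0 (no adjusted p for 4976 genes), limma 3.58.1 voom with statmod 1.5.0 (correlation within mice 0.76), sums or 1 tumor per mouse, no filter, other normalization, and subsets of tumors. The fits were tested on simulated counts drawn without a mouse effect, so that check does not cover tumors that share a mouse. Correlations and figures were made in Python 3.11.15 (pandas 2.3.3, numpy 2.4.6, matplotlib 3.10.9, scipy 1.17.1).

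The members and the 14 lists of other genes (176 genes) were chosen with earlier results of these data known. Besides the 10 members, the text names genes of a list that passed the threshold (at most 3), its 2 most abundant genes, and the genes most like the contractile members (10), the pericyte members (10) and *Notum* (5). *Arid1a* and the overlapping genes were added.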

Additional observations from a re-analysis of the deposited data

Results flagged for a closer look

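Among the 8 WT tumors, the lung tumor of N25 lay farther from its nearest neighbor than Dixon's limit of 0.526 of the range of log2 CPM for 4 genes. The gap was 0.576 of the range for *Myh11* (162 CPM) and 0.545 for *Cnn1* (38.9 CPM), both at the high end. At the low end it was 0.560 for *Rgs5* (17.1 CPM) and 0.566 for *Cspg4* (40.6 CPM). Of 20 gene and group combinations tested, 4 passed this limit, and chance alone would give about 1 if tumors were independent. The limit takes no account of the mice, although 4 of the WT tumors came from N42 and 2 from N43. All 4 concern the same tumor, the WT tumor with lung markers, and no KO tumor passed for any of the 10 genes.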

How the results depend on the processing

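No paired analysis was possible because no mouse gave both KO and WT tumors. Each fit was repeated under 32 alternatives, 4 of which were chosen after seeing the data (without Prince and the lung tumor of N25, without the tumors of N215 and N25, and with the endothelial marker sum or the log2 of total counts as a covariate). The number of the 10 genes past the threshold, 1 in the edgeR fit of all tumors, was 0 with limma-voom, with counts summed per mouse, with 1 tumor per mouse, without the 4 tumors of N42, with Medusa and Ohio as the only KO tumors and with total counts as a covariate, and in each of these the number lower in KO was also 0, with 1 gene at an unadjusted p under 0.05 (2 with total counts). It was 2, with *Myh11* as 1 gene higher in KO, without the lung tumor of N25 and without the tumors of N215 and N25. Leaving out 1 tumor at a time gave 1 to 2 genes past the threshold, 1 lower, and 0 to 1 higher, and the lung tumor of N25 was the one that added a gene. *Notum* kept its sign in all 32. These hold the fits without Prince and without the lung tumor of N25 both by name and among those leaving out 1 tumor. Where its call was lost, its log2 fold change was -3.69 with limma-voom (adjusted p = 0.386), -4.08 per mouse, -3.93 with 1 tumor per mouse (0.310), -3.50 without N42, -4.19 with Medusa and Ohio (0.0842) and -3.46 with total counts. The cause of these losses was not tested. The fits on mice and subsets held fewer samples, while limma-voom and the fit with total counts used all tumors.

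Signs of other log2 fold changes turned as follows. With limma-voom *Acta2* had -0.55, *Tagln* -0.092, *Myl9* -0.26 and *Mcam* -0.085. With Medusa and Ohio alone *Acta2* had -1.47, *Tagln* -1.61, *Myh11* -1.02, *Myl9* -0.67, *Pdgfrb* 0.74 and *Cspg4* 0.84. Without Prince *Acta2* had -0.35 and *Myl9* -0.34, and without Prince and the lung tumor of N25 *Myl9* had -0.0098. *Myl9* and *Mcam* had -0.25 and -0.36 per mouse, -0.21 and -0.42 with 1 tumor per mouse, and -0.40 and -0.36 without N42, and *Mcam* had -0.19 with total counts. When 1 tumor was left out, the lowest and highest values were -0.35 and 0.91 for *Acta2*, 0.70 and 3.48 for *Myh11* (3.59 without N215 and N25), -0.34 and 0.42 for *Myl9*, and -0.058 and 0.52 for *Mcam*, and no sign turned for the other tested genes.

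The lists of other genes had 12 genes past the threshold in all, against 32 in DESeq2, 22 with no filter, 20 without N215 and N25, 19 with the endothelial covariate, 7 without Montana and Oregon, 3 with Medusa and Ohio, 2 with total counts, and 0 with limma-voom, per mouse, with 1 tumor per mouse or without N42. Of all genes, edgeR called 4.01%, DESeq2 12.5%, limma-voom 0.11% and edgeR per mouse 0.0625%. The number of list genes tested also differed between fits. These counts therefore do not show a change particular to the lists. Leaving out 1 tumor gave from 7, without the right femur tumor of N42, to 16, without Massa or without Zelda. The WT medians in CPM of the library total and the correlations with a prior count of 0.5 moved by less than the spread over tumors. A count of 0 in Massa or Grilka does not place *Notum* below the lowest WT tumors. Without the lung tumor of N25, a check chosen after seeing the data, 7 rather than 9 genes had a larger SD between mice than within N42.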
